A study of Mus musculus with 4 samples.

Results

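The transcripts described here are those of 10 genes that adjust growth and metabolism to energy and stress, read out of the 24157 genes of an islet RNA-seq table: the AMP-activated protein kinase (AMPK) subunit genes *Prkaa1*, *Prkaa2*, *Prkab1*, *Prkab2* and *Prkag2*, the sestrins *Sesn1*, *Sesn2* and *Sesn3*, the mTORC1 inhibitor *Ddit4* (REDD1) and the AMPK-related kinase *Sik1*. A gene was included by its symbol, and where it had several entries the one with the highest mean over the libraries stood for it. Whole islets, which hold beta cells together with alpha, delta and other endocrine cells, were taken from wild type male C57bl6 mice 3 months old, pooled, and kept overnight in RPMI with 11 mM glucose. All were then held for 2 h at 2.8 mM glucose before they went on at 2.8 mM or were moved to 16.8 mM glucose. RNA of 2 groups of islets per concentration was sequenced, which gives 4 libraries in all. The series design and the methods state 12 h at either concentration, whereas by the sample labels the libraries at 2.8 mM had only 2 h and those at 16.8 mM had 12 h. If the labels hold, glucose and time cannot be told apart. Since the islets came from pooled animals, the p-values measure only the spread between these libraries, which may be technical.

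AMPK is a kinase made of a catalytic α, a scaffolding β and a nucleotide-binding γ subunit, and it becomes active when ATP runs low and AMP rises. In beta cells glucose metabolism raises ATP, so that active AMPK is a feature of low glucose, while the growth kinase complex mTORC1 is favoured by plentiful nutrients. Sestrins and REDD1 are stress-induced proteins that restrain mTORC1, the sestrins through the GATOR complexes that control the Rag GTPases and REDD1 through the TSC complex, and SIK1 is a cAMP-induced kinase that phosphorylates the CRTC coactivators of CREB.

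*Sik1* and *Ddit4* were higher and *Sesn2* was lower at 16.8 mM glucose. *Sik1* rose 2.94-fold, *Ddit4* rose 1.87-fold and *Sesn2* fell to 60.5% of its level at 2.8 mM. The AMPK subunit transcripts of the set that entered the test, *Prkaa1*, *Prkab1* and *Prkab2*, did not pass it. The scarce α2 transcript *Prkaa2* stood at 55.7% of its level at 2.8 mM and passed in the fits that could include it. Of the 10 genes, 6 had a mean of at least 1 RPKM (reads scaled by transcript length and library depth) and entered the limma test on log2(RPKM + 0.5). 3 of these 6 had a Benjamini-Hochberg adjusted p under 0.05, against 33.4% of all 7867 entries tested. 2 were higher, as were 10.7% of all entries, and 1 was lower, as were 22.8%. A fit with no minimum, in which 9.13% of entries were called, added *Prkaa2*. So did voom, limma's model for read counts, on reads rebuilt from RPKM and depth, which could take all 10 genes. It called 4 of them, against 42.1% of 14472 entries, namely 2 higher (13.2% of all entries) and 2 lower (28.8%). In bulk islets, fewer cells of a type and less RNA per cell cannot be told apart.

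**Figure D1:**
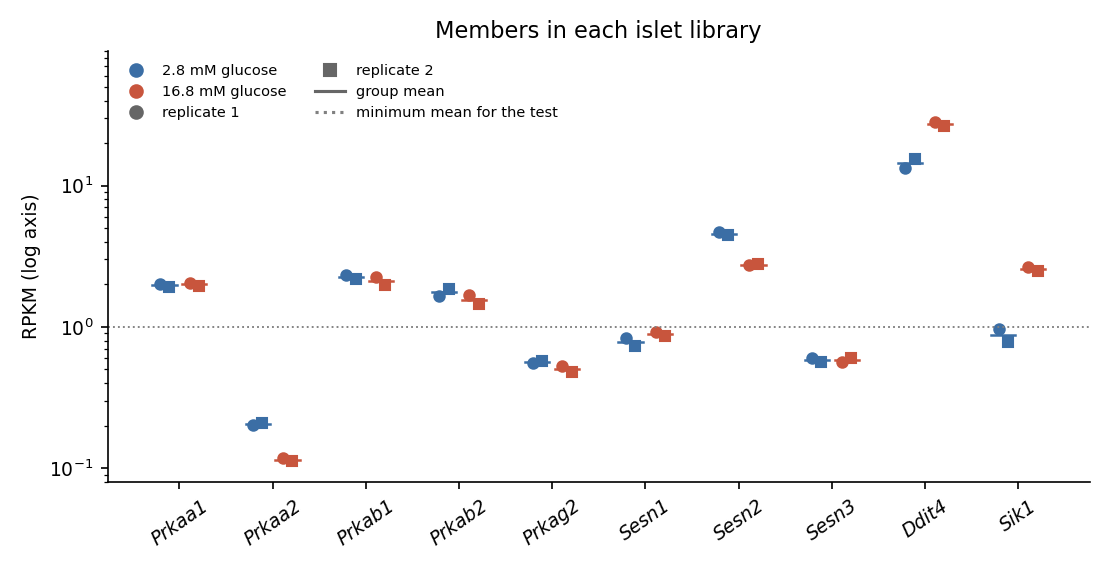
RPKM of the 10 genes on a log axis in each of the 4 libraries, with 2.8 mM glucose in blue, 16.8 mM in red, circles for replicate 1, squares for replicate 2, short bars for group means and a dotted line at the minimum mean of 1 RPKM for the test. *Ddit4* and *Sik1* sat higher and *Sesn2* and *Prkaa2* lower at 16.8 mM, with replicates close together, while *Prkaa1* and *Sesn3* stayed level.

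The promoters of 9 of the 10 genes are in a RefSeq table of GRCm38.p6, which gives 250 bases before to 50 bases after each transcript start. Those of *Ddit4* and *Sesn2*, called in opposite directions, are shown in the direction of the gene, both from the minus strand, with any motif searched in capitals. *Ddit4* is at chr10:59951721-59952020 and *Sesn2* at chr4:132510407-132510706.
Ddit4: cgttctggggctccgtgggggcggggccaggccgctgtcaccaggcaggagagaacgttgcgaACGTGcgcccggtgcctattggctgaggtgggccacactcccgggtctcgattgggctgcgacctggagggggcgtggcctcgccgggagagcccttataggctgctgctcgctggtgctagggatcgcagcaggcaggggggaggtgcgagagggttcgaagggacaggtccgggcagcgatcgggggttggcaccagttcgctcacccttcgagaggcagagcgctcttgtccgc
Sesn2: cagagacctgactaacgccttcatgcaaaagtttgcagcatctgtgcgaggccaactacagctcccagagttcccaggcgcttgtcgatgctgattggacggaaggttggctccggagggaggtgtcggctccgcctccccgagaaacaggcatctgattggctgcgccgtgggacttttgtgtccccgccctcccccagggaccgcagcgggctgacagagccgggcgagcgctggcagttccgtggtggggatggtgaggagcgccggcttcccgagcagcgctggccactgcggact
Both strands were searched for TGACGTCA (the cAMP response element) and its core TGACG, which lies within it, TGATGCAA (an element bound by ATF4 with C/EBP proteins), CACGTG (the E-box), GTAAACA (a forkhead motif) and ACGTG (the core of the hypoxia element, which lies within the E-box). The *Ddit4* window held a single match, ACGTG on the strand of the gene at positions -187 to -183 from the start. That core was present in 19.6% of all 32851 promoters. The *Sesn2* window held none of the 6 motifs, of which TGATGCAA occurred in 0.895% of all promoters, TGACGTCA in 1.79%, GTAAACA in 3.65%, CACGTG in 7.15% and TGACG in 20.8%. Both windows were rich in G and C, with 69.0% in *Ddit4* and 64.7% in *Sesn2*. Among the other genes of the set, *Prkaa2* held TGACG at -196 to -192 and *Sesn1* held TGACG in 1 of its start windows and GTAAACA in another. The promoter of *Sik1* was not analysed here.

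The libraries held between 50801290 and 60708953 reads, a depth rebuilt from the step that 1 read adds to the RPKM of small RNAs of known length. At that depth 1 read in 1 kb was worth 0.0165 to 0.0197 RPKM. Correlations of log2 values were 0.98 between replicates and 0.927 to 0.939 across concentrations. The islet label was borne out by the hormone transcripts. The summed RPKM of 6 beta cell markers was 20550 and 22900 at 2.8 mM and 40930 and 43710 at 16.8 mM, with 5 of the 6 called higher, while none of the tested alpha cell (4), delta and PP cell (3), leukocyte (2) or stromal (1) markers was called. None of 8 acinar cell markers was called by limma, but voom called all 8 higher, their median log2 fold change by limma was 1.04 and their summed RPKM was 90.3 and 259 at 2.8 mM and 219 and 459 at 16.8 mM. Of 2 duct cell markers tested, 1 was called higher, and no endothelial marker reached the minimum. No defining marker was at 0. The part of these cell types in the results below was not tested. Of the entries called, 31.9% were higher, which became 42.3% after quantile normalization and 44.1% after centring each library on its median, and the median log2 fold change of all entries tested was -0.11.

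A further property of the table affects levels between genes. The deposited RPKM of low, single-transcript genes gave whole reads, within 0.1 read, for 83.7% to 84.6% of values when the length was the genomic span of the transcript, introns included, and for 18.1% to 20.4% when it was the exons. The RPKM of a gene with long introns is therefore low for its reads. Levels are given below both as deposited and as exon RPKM, the same reads scaled by the summed length of the exons in place of the span. The methods name RefSeq exons for the counting, without treating the islet libraries apart, and whether reads in introns were counted was not tested. Plain ratios of RPKM between glucose concentrations do not depend on the length chosen. The minimum of 1 RPKM and the limma fold change with 0.5 RPKM added do, as both use the values over the span. *Prkaa2*, *Prkag2*, *Sesn1* and *Sesn3*, which that minimum kept out, had mean exon RPKM of 1.61, 11.1, 6.76 and 13.4. Positions are those of NCBI build 37 (mm9).

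Of the catalytic subunits, *Prkaa1* was the more abundant transcript in all 4 libraries (chr15:5093861-5131899, plus strand, 12.2% of the span exonic). It encodes α1. Its RPKM was 2.02 and 1.92 at 2.8 mM and 2.05 and 1.94 at 16.8 mM glucose, from 3757 to 4728 reads per library. The values of the groups interleaved. The means were 1.97 ± 0.0699 (SD, n = 2) and 2.00 ± 0.0730 RPKM. Its log2 fold change was 0.01 (SE 0.08, 95% interval -0.18 to 0.21, limma adjusted p = 0.914).

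*Prkaa2* (chr4:104702479-104782495, minus strand), which encodes α2, the catalytic subunit best known from muscle, was the scarcest subunit transcript. Its RPKM was 0.202 and 0.210 at 2.8 mM and 0.117 and 0.112 at 16.8 mM, from 944, 872, 570 and 456 reads in the same order. Both 16.8 mM values lay well below both 2.8 mM values, and replicates differed little. The mean went from 0.206 ± 0.00559 to 0.115 ± 0.00375 RPKM (SD, n = 2). Under the minimum of 1 RPKM the gene was not tested in the limma fit above. Without a minimum the limma fit gave a log2 fold change of -0.20 (SE 0.01, adjusted p = 0.0362), a size pulled towards 0 by the 0.5 RPKM added to so low a value, and voom on reads gave -0.84 (SE 0.13, 95% interval -1.10 to -0.58, adjusted p = 3.647e-05). *Prkaa2* was thus lower at 16.8 mM while *Prkaa1* showed no such difference. The ratio of *Prkaa1* to *Prkaa2* RPKM was 10.02 and 9.17 at 2.8 mM and 17.4 and 17.3 at 16.8 mM, and 8.16, 7.46, 14.2 and 14.1 in exon RPKM. A small RNA annotated on the same strand overlaps *Prkaa2* over 269 bases.

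The β subunits carry the carbohydrate-binding module that ties the complex to glycogen. *Prkab1* (β1, chr5:116463595-116474471, minus strand) had an RPKM of 2.35 and 2.18 at 2.8 mM and of 2.25 and 1.97 at 16.8 mM. *Prkab2* (β2, chr3:97462135-97477735, plus strand) had an RPKM of 1.66 and 1.85 at 2.8 mM and of 1.67 and 1.45 at 16.8 mM. For either gene the groups overlapped. The log2 fold change was -0.08 for *Prkab1* (95% interval -0.30 to 0.14, limma adjusted p = 0.529). It was -0.13 for *Prkab2* (95% interval -0.35 to 0.09, limma adjusted p = 0.316). *Prkab1* exceeded *Prkab2* in every library, by 1.18 to 1.41 times in RPKM and by 1.97 to 2.36 times in exon RPKM.

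The γ subunits bind AMP, ADP and ATP. *Prkag2* (γ2) has a short entry (chr5:24368566-24414287, minus strand) with an RPKM of 0.558 and 0.571 at 2.8 mM and of 0.530 and 0.476 at 16.8 mM. The 16.8 mM values were the lower ones, without overlap, but close to the others. The gene lay under the minimum, and voom gave a log2 fold change of -0.17 (95% interval -0.39 to 0.06, adjusted p = 0.237). A longer entry of 237.9 kb contains the short span, and 64.1% to 70.4% of its reads fell within that short span. *Prkag1* (γ1), which is not one of the 10 genes, had an RPKM of 1.67 and 1.47 at 2.8 mM and of 1.91 and 1.66 at 16.8 mM. Its log2 fold change was 0.14 (limma adjusted p = 0.289), and it was called higher after quantile normalization (0.22, adjusted p = 0.0224) and after median centring (0.22, adjusted p = 0.0194). The muscle subunit *Prkag3* was listed at 0 in 3 libraries and at 0.0016 RPKM in the other.

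Across the 4 libraries the order of AMPK subunit levels depended on the length used. In RPKM over the span, *Prkab1* (mean 2.19) and *Prkaa1* (1.98) overlapped at the top, followed by *Prkag1* (1.68) and *Prkab2* (1.66), which also overlapped, and then by *Prkag2* (0.534) and *Prkaa2* (0.160). In exon RPKM, *Prkag1* came to 19.2, *Prkaa1* to 16.2, *Prkab1* to 11.4, *Prkag2* to 11.1, *Prkab2* to 5.17 and *Prkaa2* to 1.61, and the values of *Prkab1* and *Prkag2* alone overlapped between neighbours. On either scale *Prkaa2* was last.

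**Figure D2:**
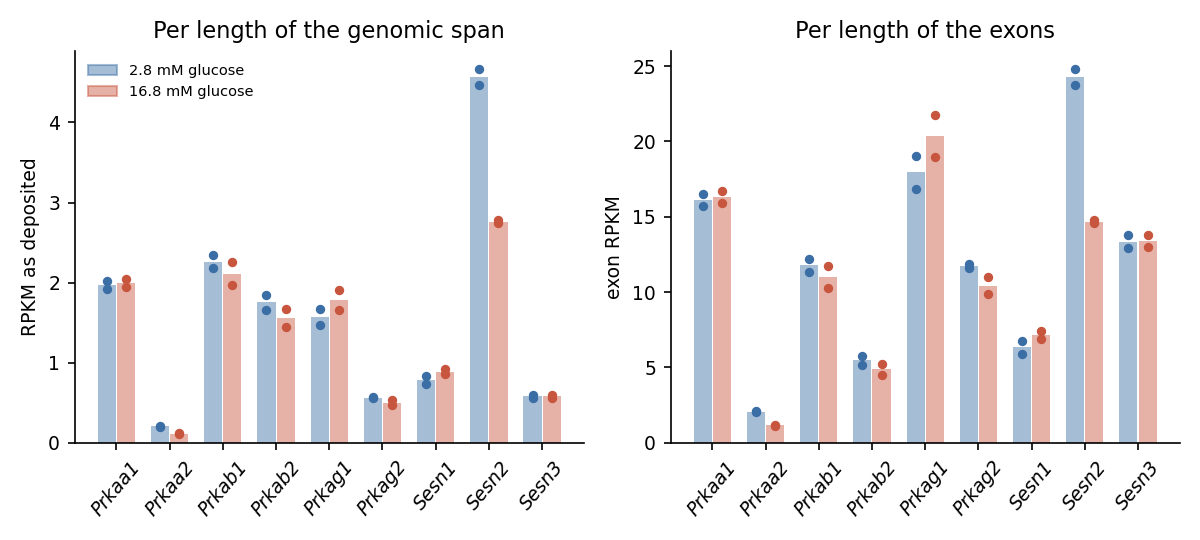
Levels of the AMPK subunit and sestrin genes at 2.8 mM (blue) and 16.8 mM glucose (red), as deposited RPKM over the genomic span on the left and as exon RPKM on the right, with bars for means of 2 libraries and points for libraries. *Prkag2* and *Sesn3*, with few exonic bases in their spans, move up on the exon scale, and *Prkaa2* remains the lowest.

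Of the sestrins, *Sesn2* was the most abundant and the one that changed. *Sesn2* (chr4:132047947-132066416, minus strand), which encodes a leucine-binding sestrin that is induced by ATF4 and p53, had an RPKM of 4.66 and 4.47 at 2.8 mM and of 2.74 and 2.78 at 16.8 mM glucose. These rest on 5034, 4286, 3077 and 2606 reads in the same order. Both 16.8 mM values were far below both 2.8 mM values. The mean fell from 4.56 ± 0.139 to 2.76 ± 0.0236 RPKM (SD, n = 2), a log2 fold change of -0.64 (SE 0.09, 95% interval -0.85 to -0.42, limma adjusted p = 0.00307). The fall ranked 413 of 1790 by size. A processed transcript on the same strand, Gm12981, overlaps 6089 bases of the span, so part of the reads could belong to it.

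*Sesn1* (chr10:41607245-41628230, plus strand), a p53 target gene, had an RPKM of 0.834 and 0.733 at 2.8 mM and of 0.923 and 0.857 at 16.8 mM. The 16.8 mM libraries were slightly higher, with the groups barely apart. By voom its log2 fold change was 0.19 (95% interval -0.06 to 0.43, adjusted p = 0.223). *Sesn3* (chr9:14080745-14130582, plus strand), known as a FOXO target gene, had an RPKM of 0.598 and 0.560 at 2.8 mM and of 0.565 and 0.598 at 16.8 mM. Its groups covered the same range. The voom log2 fold change was 0.00 (95% interval -0.21 to 0.22, adjusted p = 0.977). Both genes were under 1 RPKM, and neither passed without the minimum (limma adjusted p = 0.335 for *Sesn1* and 1.0 for *Sesn3*). The interval of *Sesn2* by voom (-0.92 to -0.53) lay wholly below those of *Sesn1* and *Sesn3*, although the difference between sestrins was not itself tested.

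The sestrin order also moved with the length. The mean RPKM over 4 libraries was 3.66 for *Sesn2*, 0.837 for *Sesn1* and 0.580 for *Sesn3*. In exon RPKM the mean was 19.5 for *Sesn2*, 13.4 for *Sesn3* and 6.76 for *Sesn1*, since exons are 4.3% of the *Sesn3* span, 12.4% of that of *Sesn1* and 18.8% of that of *Sesn2*. On both scales no library of a sestrin overlapped the next in order. At 16.8 mM, *Sesn2* had come down to 14.6 and 14.8 on the exon scale, close to the 13.02 and 13.8 of *Sesn3*.

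*Ddit4* (chr10:59412423-59414518, minus strand), a stress- and hypoxia-induced inhibitor of mTORC1, was the most abundant of the 10 genes in RPKM and went the opposite way to *Sesn2*. Its RPKM was 13.4 and 15.5 at 2.8 mM and 28.0 and 26.2 at 16.8 mM glucose, from 1644, 1689, 3558 and 2790 reads. The groups were far apart relative to the replicates. The mean rose from 14.5 ± 1.48 to 27.1 ± 1.25 RPKM (SD, n = 2), a log2 fold change of 0.89 (SE 0.13, 95% interval 0.58 to 1.19, limma adjusted p = 0.00334). The rise ranked 224 of 838. *Ddit4* is short, with 80.4% of its 2.1 kb exonic, so its lead over the other genes shrank on the exon scale, to 16.7 and 19.3 exon RPKM at 2.8 mM, below the 24.8 and 23.7 of *Sesn2*. At 16.8 mM it was 34.8 and 32.6, above the 14.6 and 14.8 of *Sesn2*. The order of these mTORC1 inhibitor transcripts on the exon scale was thus reversed between the concentrations, while in RPKM as deposited *Ddit4* was above *Sesn2* in every library. The exon scale assigns all reads to exons, which was not tested and matters more for *Sesn2*, with 18.8% of its span exonic.

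*Sik1* (chr17:31981193-31992737, minus strand) had the largest rise of the set. Its RPKM was 0.971 and 0.779 at 2.8 mM and 2.66 and 2.48 at 16.8 mM glucose, from 655, 467, 1862 and 1457 reads. Both 2.8 mM values were low and close to each other. The mean went from 0.875 ± 0.136 to 2.57 ± 0.122 RPKM (SD, n = 2). The log2 fold change was 1.16 (SE 0.10, 95% interval 0.93 to 1.39, limma adjusted p = 0.00046) and ranked 125 of 838 rises. *Sik1* met the minimum through its 16.8 mM values, and with no minimum its adjusted p was 0.0379. Voom, which adds no 0.5 RPKM, gave 1.56 (95% interval 1.29 to 1.83, adjusted p = 2.507e-08).

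**Figure D3:**
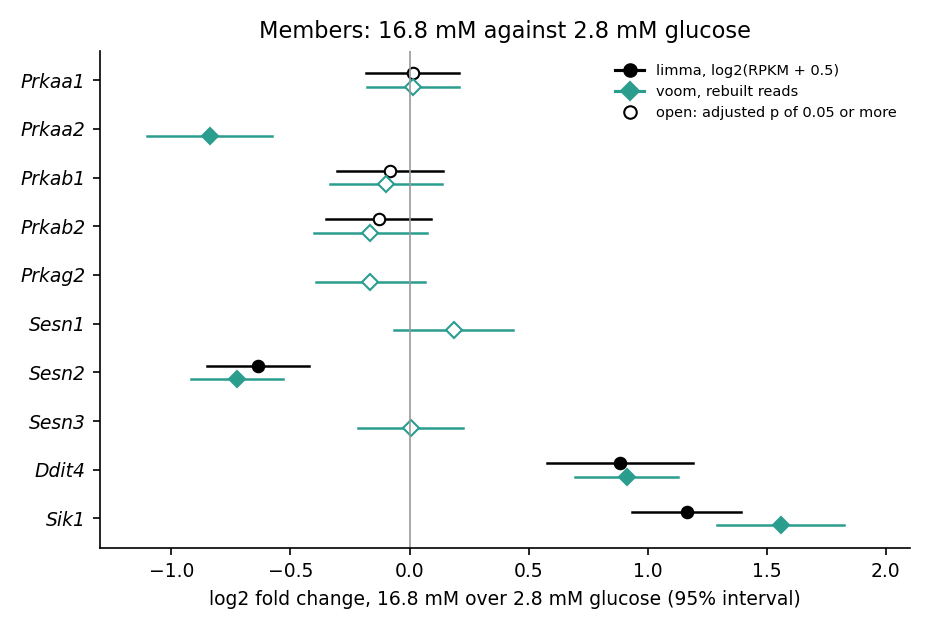
Log2 fold change of each of the 10 genes at 16.8 mM over 2.8 mM glucose with its 95% interval, from limma on log2(RPKM + 0.5) for the 6 genes tested (black circles) and from voom on rebuilt reads for all 10 (green diamonds), with filled symbols for an adjusted p under 0.05. *Sik1* and *Ddit4* lie to the right of 0, *Sesn2* and *Prkaa2* to the left, and the intervals of the other 6 genes include 0.

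The entries whose pattern over the 4 libraries was most like that of *Sik1*, by Euclidean distance of log2 values centred on their mean, were *Hist2h3b* (0.0555), *Hist1h2ba* (0.0654) and *Hist1h2bk* (0.0661), all genes of core histones. Those most like *Sesn2* were *Acaa1a* (0.0120), a peroxisomal enzyme of fatty acid oxidation, *Otub2* (0.0164), a deubiquitinase, and *Ctns* (0.0258), the lysosomal cystine transporter.

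Genes around the 10 were read from 14 lists of 131 genes, of which 73 met the minimum and 39 were called, 14 higher and 25 lower, beside 33.4% of all entries. Some met the minimum only through the group where they are high. *Irs2*, *Nr4a1*, *Nr4a2*, *Fos* and *Crem* did so at 16.8 mM, and *Fnip2* and *Bbc3*, among others, at 2.8 mM. With 1 RPKM required in every library, 34 of 60 were called, 11 higher and 23 lower. In the counts that follow, the shares of all entries to set beside them are 10.7% higher and 22.8% lower by limma and 13.2% higher and 28.8% lower by voom. The lists were chosen with earlier results of these data known. Of the kinases that act on AMPK and the partner proteins of LKB1, listed together, none of 3 genes tested was called. *Stk11* (LKB1), 1 of the 3, had 3.07 and 2.96 RPKM at 2.8 mM and 3.45 and 2.98 at 16.8 mM (limma adjusted p = 0.569). Another of the 3, *Map3k7* (TAK1), had 1.14 RPKM at 2.8 mM and 0.889 at 16.8 mM (limma adjusted p = 0.0616). It was called lower after quantile normalization (0.0483), after median centring (0.0434), without replicate 2 at 2.8 mM (0.0429) and without replicate 1 at 16.8 mM (0.0436). Voom took all 8 genes of this list and called 6 lower, with a list median of -0.33. The 6 include partners of LKB1, while *Stk11* itself was not called by voom (adjusted p = 0.485). The AMPK-related kinases had 1 tested gene and no call, and by voom 1 of 12 was higher and 2 were lower, shares under those of all entries.

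Of 5 tested substrates of AMPK and SIK, 1 was higher and 2 were lower, and voom had 5 higher and 7 lower of 16. *Srebf1*, the regulator of lipid synthesis, rose from 2.00 to 2.86 RPKM (log2 fold change 0.43, limma adjusted p = 0.0114). *Crtc2*, the CREB coactivator on which SIK1 acts, fell from 3.70 to 2.51 RPKM (log2 fold change -0.48, adjusted p = 0.00821 by limma), and *Mff*, a mitochondrial fission factor, fell from 2.59 to 1.92 RPKM (limma adjusted p = 0.0232), a call lost without replicate 1 at 2.8 mM (0.166) or replicate 2 at 16.8 mM (0.0744). The deacetylase *Hdac5* had 1.13 RPKM at 2.8 mM and 1.39 at 16.8 mM (limma adjusted p = 0.0793). It was called higher after quantile normalization (0.00724) or median centring (0.00865) and by voom (0.0215).

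Of the mTORC1 machinery, the genes that place the complex on the lysosome held 6 calls, all of them lower, among 12 tested (22.8% of all entries were lower). None of 3 tested mTOR complex subunits was called (list median -0.23), and by voom 3 of 9 were lower, near the share of all entries. *Tsc1*, of the TSC complex through which REDD1 acts, fell from 1.68 to 1.12 RPKM (log2 fold change -0.43, limma adjusted p = 0.00691). That was the only limma call among 3 tested in its list, where voom called 4 of 5 lower (median -0.58). The list of Rag GTPases, Ragulator and folliculin, which bring mTORC1 there, had 6 of 12 genes lower and none higher, with a median of -0.37. Without replicate 2 at 16.8 mM 4 were lower, as *Lamtor1* (limma adjusted p = 0.0622) and *Flcn* (0.0611) were lost. *Rragd* had 3.76 and 3.54 RPKM at 2.8 mM and 1.81 and 1.63 at 16.8 mM (log2 fold change -0.90, limma adjusted p = 0.00089). *Fnip2*, a partner of folliculin and AMPK, had 1.80 and 1.89 RPKM at 2.8 mM and 0.821 and 0.721 at 16.8 mM (log2 fold change -0.89, limma adjusted p = 0.000617). It met the minimum through its 2.8 mM values. With 1 RPKM required in every library, 10 genes of this list were tested and 5 were lower. *Rraga*, the most abundant of the list, had 38.0 RPKM at 2.8 mM and 43.7 at 16.8 mM and was not called (limma adjusted p = 0.272), although median centring called it higher (adjusted p = 0.0225).

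For the GATOR complexes, which the sestrins bind, and the arginine sensors, voom had 2 higher and 7 lower of 13, with a median of -0.29. The limma calls went both ways, with 2 higher and 3 lower of 7 tested and a median of -0.20. No gene was called lower without replicate 1 at 2.8 mM or without replicate 2 at 16.8 mM. *Gatsl2*, a paralogue of the arginine sensor, rose from 1.46 to 3.04 RPKM (log2 fold change 0.86, limma adjusted p = 0.000937), and *Sec13*, shared by GATOR2 and the secretory coat, rose from 4.31 to 5.92 RPKM. *Nprl2*, of the GATOR1 complex, fell from 4.53 to 3.22 RPKM (log2 fold change -0.44, limma adjusted p = 0.0285), and *Seh1l*, of GATOR2, fell from 4.82 to 3.64 RPKM. Leaving out 1 library ended these calls, apart from that of *Gatsl2*. Without replicate 2 at 16.8 mM the adjusted p was 0.146 for *Nprl2* and 0.16 for *Seh1l*, without replicate 1 at 2.8 mM it was 0.0895 and 0.0858, and without replicate 2 at 2.8 mM that of *Seh1l* was 0.0743. For *Sec13* it was 0.143 without replicate 2 at 2.8 mM and 0.0877 without replicate 1 at 16.8 mM.

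Of 6 tested mTORC1 targets 3 were lower and none higher, and by voom 6 of 10 were lower and 1 higher. Without replicate 1 at 2.8 mM none was called and without replicate 2 at 16.8 mM 1 was, the third gene being *Atg13* (adjusted p by limma 0.0352, and 0.191 and 0.13 in those fits). *Ulk1*, the autophagy kinase, had 1.21 RPKM at 2.8 mM and 1.53 at 16.8 mM (limma adjusted p = 0.0509) and was called higher after quantile normalization (0.0105), after median centring (0.0135) and by voom (0.0119). *Eif4ebp1*, the translation repressor, fell from 3.34 to 2.34 RPKM (log2 fold change -0.43, limma adjusted p = 0.0137), and *Eif4ebp3* fell from 3.45 to 2.64 RPKM (limma adjusted p = 0.0423). The call of *Eif4ebp1* was lost without replicate 1 at 2.8 mM (adjusted p = 0.0717). That of *Eif4ebp3* was lost without replicate 1 (0.0579) or 2 (0.203) at 2.8 mM, without replicate 2 at 16.8 mM (0.198), and after quantile normalization (0.0839) or median centring (0.0854). Among 3 further inhibitors of the insulin to mTOR route, *Trib3*, a pseudokinase that binds AKT, fell from 24.6 to 5.93 RPKM (log2 fold change -1.96, limma adjusted p = 0.000119), and *Tsc22d3* fell from 3.15 to 2.08 RPKM.

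**Figure D4:**
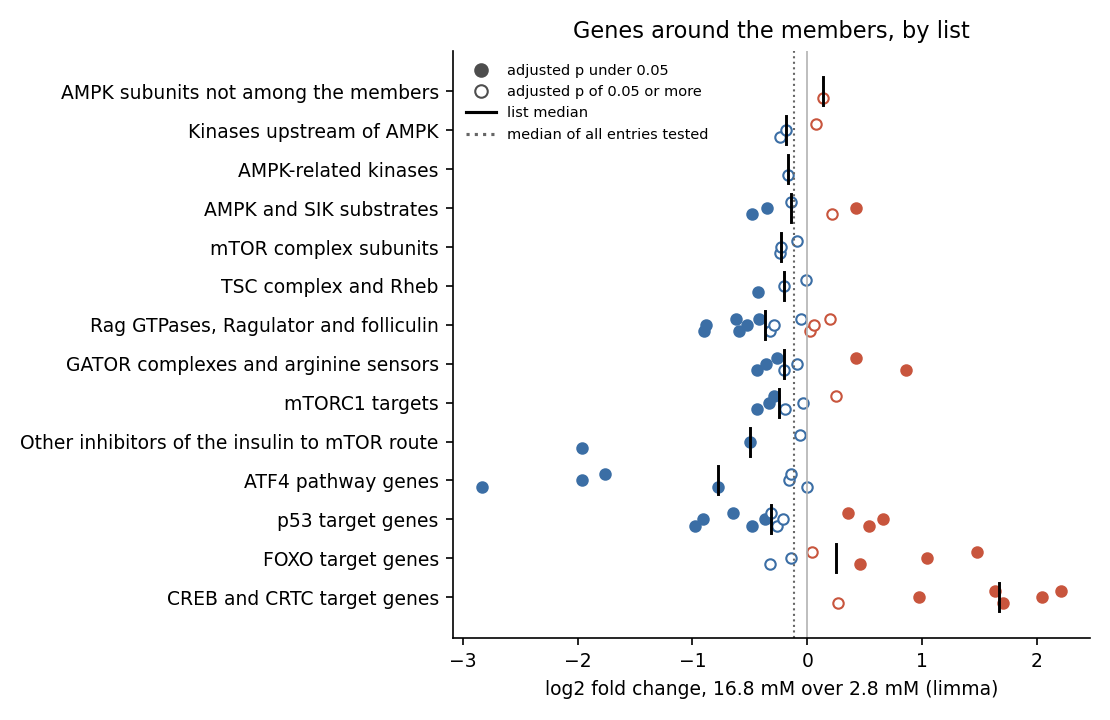
Log2 fold change (limma, 16.8 mM over 2.8 mM glucose) of the 73 tested genes of the 14 lists, filled where the adjusted p was under 0.05, with black ticks at list medians and a dotted line at -0.11, the median of all 7867 entries tested; *Trib3* is in 2 lists. The Rag, Ragulator and folliculin genes and the ATF4 genes reach far to the left and the CREB and CRTC genes far to the right.

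Transcription factors known to act on the genes of the set were followed through their target lists. Genes of the ATF4 pathway, which induces *Sesn2* and also *Ddit4* in stressed cells, had 4 of 7 tested lower, none higher and a median of -0.78. By voom 5 of 9 were lower and 1 was higher, with a median of -0.48. The higher gene was *Slc7a11*, with 0.360 RPKM at 2.8 mM and 0.545 at 16.8 mM (voom adjusted p = 0.000163). *Ddit3* (CHOP) had 71.4 and 65.4 RPKM at 2.8 mM and 10.1 and 8.34 at 16.8 mM (log2 fold change -2.83, limma adjusted p = 6.2e-05), and *Trib3*, given above, came next in size. *Sesn2* fell as *Ddit3* and *Trib3* did, whereas *Ddit4* rose. The amino acid synthesis gene *Asns*, also in the list, was not called (8.87 and 8.01 RPKM, limma adjusted p = 0.344). Nor were *Chac1* (limma adjusted p = 0.330) and *Vldlr* (limma adjusted p = 0.960) of the same list.

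Targets of p53, which is known to induce *Sesn1* and *Sesn2*, were mixed, with 3 higher and 5 lower of 11 tested and a median of -0.32. Some of the lower genes, such as *Bbc3*, met the minimum through their 2.8 mM values. With 1 RPKM required in every library, 3 were higher and 3 lower of 9 tested. *Btg2* rose from 11.1 to 17.8 RPKM and *Cdkn1a* from 6.97 to 10.4 RPKM, and *Trp53inp1* fell from 5.58 to 2.58 RPKM and *Ccng1* from 20.4 to 10.6 RPKM. Without replicate 1 at 16.8 mM 1 was higher in place of 3, since *Cdkn1a* (limma adjusted p = 0.0781) and *Plk2* (0.195) were lost, and without replicate 2 at 2.8 mM 2 were (0.123 for *Plk2*). *Bbc3* was lost without replicate 1 at 2.8 mM (0.184) and after quantile normalization (0.0854) or median centring (0.0651).

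FOXO target genes had 3 higher and none lower of 6 tested, with a median of 0.25, but 3 higher and 5 lower of 10 by voom, with a median of -0.25. *Irs2* met the minimum through its 16.8 mM values, and the minimum kept out *Insr*, *Klf15*, *Fbxo32* and *Bcl6*, all called lower by voom, so the limma count says little about the list. Without replicate 2 at 2.8 mM or replicate 1 at 16.8 mM 2 were higher (adjusted p 0.057 and 0.11 for *Cited2*). *Bnip3*, a mitophagy receptor that is also induced by hypoxia, had 3.94 and 6.85 RPKM at 2.8 mM and 17.6 and 13.4 at 16.8 mM (log2 fold change 1.48, limma adjusted p = 0.00518). *Irs2*, an insulin receptor substrate that CREB induces too, rose from 0.705 to 1.98 RPKM.

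The cAMP-responsive genes to which *Sik1* belongs were mostly higher. Of 6 tested CREB and CRTC target genes, 5 were higher and none lower, with a median of 1.67 against the 1.16 of *Sik1*. *Nr4a2*, an orphan nuclear receptor, had 0.442 and 0.389 RPKM at 2.8 mM and 4.03 and 3.45 at 16.8 mM (log2 fold change 2.21, limma adjusted p = 3.3e-05). *Fos* had 0.757 and 0.846 RPKM at 2.8 mM and 5.70 and 4.16 at 16.8 mM (log2 fold change 2.05, limma adjusted p = 0.000219). *Per1*, the tested gene that was not called, went from 2.58 to 3.22 RPKM (limma adjusted p = 0.0789) and was called higher after quantile normalization (0.0083) and median centring (0.00732). *Nr4a1*, *Nr4a2*, *Fos* and *Crem*, like *Sik1*, met the minimum through their 16.8 mM values, so the limma count and median say little about the list. With 1 RPKM required in every library, 2 of its genes were tested and 1 was higher. Voom, with 9 genes, had 7 higher and 1 lower.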

How the data were processed

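Islet RNA of 4 libraries, 2 per glucose concentration, was used. The authors deposited 1 table of RPKM values with 33923 entries. The submitters' notes name STAR, bedtools, DESeq and mm9, and the methods describe 50-cycle single reads without treating the islet libraries apart. Whether the counting used strand is not given in the sources used here. Reads of genes overlapping *Prkaa1*, *Prkab1*, *Prkab2*, *Prkag1* and *Prkag2* on the opposite strand may therefore be included.

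Identical entries of a gene were merged, which left 28047. Those averaging 1 RPKM or more were fitted on log2(RPKM + 0.5) with limma 3.58.1 (R 4.3.3; variance trend, empirical Bayes, Benjamini-Hochberg over all entries tested, 0.05). A fold change on this scale is understated for low genes. Reads were rebuilt as RPKM × span × depth, with NCBI build 37 spans, and fitted by voom for entries with a mean of at least 20 reads. The span was that of the matching transcript for the 10 genes and *Prkag1*. For every other gene it was the longest annotated transcript, also where the entry used was a shorter one. Reads of such genes, and the precision voom gives them, are overstated. The voom counts of the lists and of all entries share this limit. Tables and plots used Python 3.11.15, pandas 2.3.3, numpy 2.4.6 and matplotlib 3.10.9. Alternatives were other scalings, minima, added values, thresholds and entries, a replicate block, and leaving out each library. The genes of the set and the lists were chosen with earlier results of these data known. All 10 genes are named, and of each list up to 2 called genes with the largest rise and 2 with the largest fall. *Stk11*, *Map3k7*, *Hdac5*, *Rraga*, *Lamtor1*, *Flcn*, *Atg13*, *Ulk1*, *Asns*, *Chac1*, *Vldlr*, *Slc7a11*, *Plk2*, *Bbc3*, *Cited2*, *Insr*, *Klf15*, *Fbxo32*, *Bcl6*, *Nr4a1*, *Crem* and *Per1* were named after their values were seen. The precision is limited by having 2 libraries per group.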

Additional observations from a re-analysis of the deposited data

How the results depend on the processing

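The calls of *Sesn2*, *Ddit4* and *Sik1* held in every fit that could test them. Over 15 fits the log2 fold change of *Sesn2* ran from -0.73 to -0.55 and that of *Ddit4* from 0.78 to 0.99, and over 14 fits that of *Sik1* ran from 0.93 to 1.56. *Sik1* left the test when 1 RPKM was required in every library, which left 5 of the genes tested and 2 called. Without a minimum and by voom 4 of the 10 were called, the addition being *Prkaa2*. Leaving out each library in turn, where the lone library of a group is assumed to vary like the others, kept 3 calls and ranges of -0.66 to -0.61 for *Sesn2*, 0.78 to 0.99 for *Ddit4* and 1.06 to 1.26 for *Sik1*. The genes of the lists called numbered 39 of 73 tested, where 33.4% of all entries were called. With 0.1 or 1 RPKM added they were 38 and 40 of 73, and with 1 RPKM required in every library 34 of 60. Quantile normalization gave 44 and median centring 45 of 73, with 3730 and 3765 of all 7867 entries called. Without a minimum they were 30 of 131, where 9.13% of all entries were called. By voom, added for the lists after the data were seen, they numbered 83 of 125 tested, and 100 with the replicate block. The libraries share replicate numbers 1 and 2, and deviations of the same number correlated at 0.31, but nothing in the labels ties a number to a shared animal or day. With the replicate block, adjusted p was 0.0096 for *Sik1*, 0.0103 for *Sesn2* and 0.0139 for *Ddit4*, members called were 3 as without it, list genes called rose to 53, and entries called in all rose to 4067 from 2628. The sign of *Prkaa1* and *Prkab1*, which were not called, changed with the scaling or the library left out, from -0.02 to 0.10 and from -0.16 to 0.00.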
